A study of Arabis alpina with 23 samples.

Results

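The genes of DNA replication and of mitosis were followed in 2 tissues of Arabis alpina, the young axillary bud (AB) and the shoot apical meristem (SAM). This plant is a perennial crucifer that needs cold to flower. The set holds every gene of the deposited expression table whose description contains 1 of 11 phrases. For replication these are minichromosome maintenance, dna replication, replication factor, dna polymerase and proliferating cell. For mitosis they are kinesin, cyclin a, cyclin b, mitotic, spindle and aurora. They select 161 of 34220 genes, 61 for replication and 100 for mitosis, and the 2 lists are described apart. All names come from these descriptions. By letters alone the phrases also matched 2 replication genes and 1 mitosis gene (Aa_G403660, a cyclin brf1-like TBP-binding protein). The mitosis list includes 59 kinesins and 6 kinesin light chains, and whether each acts in mitosis was not checked. Of the 161 genes, 158 lie on chromosomes 1 to 8 of version 5 of the genome assembly and 3 on unplaced scaffolds.

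Buds soon after their initiation, with a single leaf primordium, were compared by the submitters with the corresponding apex, also with 1 primordium, in the Pajares accession at 4 stages. Plants grew in 16 h light at 24 °C by day and 18 °C by night, and cold was given at 4 °C. AB and SAM were taken from 4-week-old plants (stage 1), from 8-week-old plants (stage 2), after 4 weeks of cold (stage 3) and after 7 weeks of cold (stage 4). The labels used here give the length of cold and no plant age for stages 3 and 4. Each of the 8 groups had 3 replicates except AB at stage 1, which had 2, for 23 libraries in all. The labels call the replicates biological, and each pooled 120 to 150 organs, so the spread between replicates is one between pools and not between plants.

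DNA replication starts when the minichromosome maintenance (MCM) helicase is loaded on origins and unwinds the duplex. Replication factor A then covers the single strands, the polymerases copy them, and the sliding clamp PCNA, placed by the clamp loader replication factor C, holds the polymerases on the DNA. Later in the cycle the A-type and B-type cyclins drive cyclin-dependent kinases into mitosis, Aurora kinases act on chromosomes and spindle, checkpoint proteins delay anaphase until chromosomes are attached, and kinesins move along microtubules or shorten them. In a shoot, such transcripts are known to be abundant where cells divide, in the meristem and in young primordia, and scarce in resting buds. In bulk RNA, fewer dividing cells and less RNA of a gene per cell cannot be told apart.

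The AB libraries held 13973874 to 15655452 counted reads and the SAM libraries 12247645 to 26218502. On the first principal component of all genes, with 48.4% of the variance, AB at stages 1 and 2 lay between -105.6 and -92.2, AB at stage 3 between -70 and -46.2, and AB at stage 4 between 40.3 and 61.5, within the range of SAM at stages 3 and 4, from 41.3 to 80.2, except for 1 library at 40.3. SAM at stages 1 and 2 lay between 10.2 and 42.1. The labelled tissues showed the meristem gene STM (Aa_G408930), which averaged 107, 120, 135 and 178 CPM (counts scaled by library size) in AB at stages 1 to 4, and 132, 146, 164 and 210 CPM in SAM. The stem cell genes WUS (Aa_G197460) and CLV3 (Aa_G155810), active in few cells, were low: WUS averaged 5.61, 7.85, 5.76 and 7.38 CPM in AB and 1.38, 2.26, 2.83 and 6.35 CPM in SAM, and CLV3 stayed at or below 1.48 CPM in every group mean. Transcripts of leaf mesophyll genes, of which 34 of 42 were tested, were also present. Their summed level averaged 10300, 9440, 10500 and 8790 TPM (transcript level scaled by gene length and library size) in AB at stages 1 to 4, against 14700, 11800, 11300 and 10600 TPM in SAM. Of these 34 genes, 15 were lower and 3 higher in AB at stage 3, and 9 were lower and 4 higher in AB at stage 4 than at stage 3. Of all tested genes 22.1% were lower and 22.1% higher in AB at stage 3, and 24.2% fell and 23% rose in AB in that step, so the number of mesophyll genes that fell was near the background. Vascular markers summed to 62.7 to 89.6 TPM in AB and 64.3 to 76.8 TPM in SAM, with their highest value in AB at stage 3. The part of these markers in the results on replication and mitosis was not tested.

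Per transcript length, the summed level of the 61 replication genes was lower in AB than in SAM before cold and at mid cold, and slightly higher in AB after 7 weeks of cold. In AB it averaged 2750 ± 100, 2640 ± 86.9, 2520 ± 26.9 and 2960 ± 47.8 TPM at stages 1 to 4 (SD, n = 3, and 2 at stage 1). In SAM it averaged 3070 ± 91.3, 2990 ± 38.3, 2890 ± 83.8 and 2830 ± 56.4 TPM (SD, n = 3). The AB libraries of stage 3 held 2550, 2490 and 2520 TPM, against 2980, 2820 and 2870 TPM in SAM, without overlap. At stage 4 the AB libraries held 2910, 2950 and 3010 TPM, against 2870, 2770 and 2860 TPM in SAM, again without overlap and in the opposite order.

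At stages 1 to 3 the sums of the 100 mitosis genes lay closer together in the 2 tissues. In AB they averaged 2410 ± 70.6, 2320 ± 24.6, 2310 ± 177 and 2730 ± 28.3 TPM at stages 1 to 4 (SD, n = 3, and 2 at stage 1). In SAM they averaged 2410 ± 12.2, 2510 ± 103, 2500 ± 132 and 2550 ± 60.2 TPM (SD, n = 3). The groups overlapped at stages 1 and 3, and at stage 3 the AB libraries ranged widely, with 2350, 2120 and 2460 TPM. At stage 4 all AB libraries lay above all SAM libraries, with 2730, 2750 and 2700 TPM in AB against 2560, 2490 and 2610 TPM in SAM. These sums are descriptions and were not tested.

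**Figure D1:**
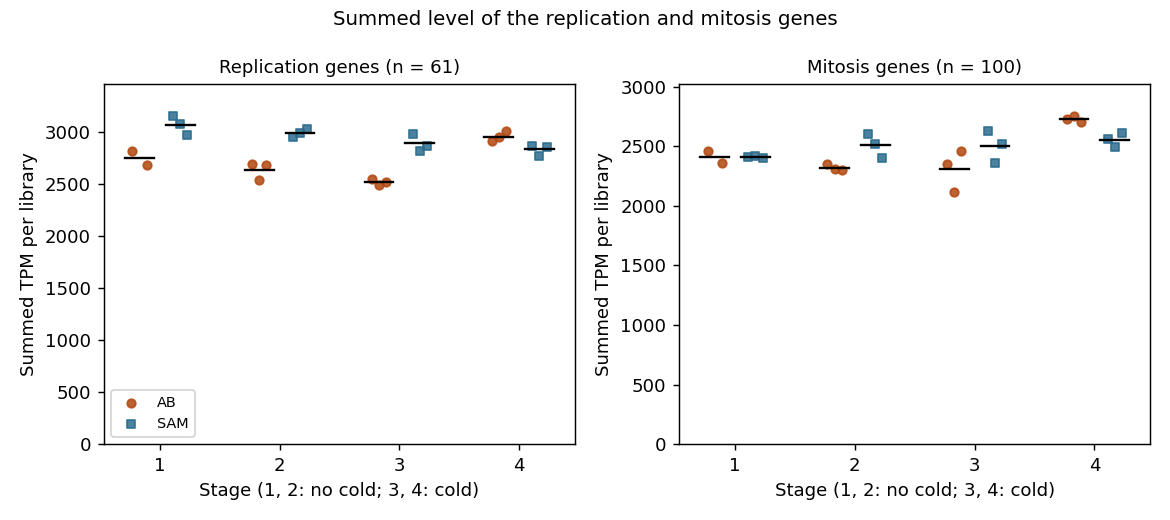
Summed level in TPM, from 0, of the 61 replication genes and the 100 mitosis genes in each of the 23 libraries, by stage; orange circles are AB, blue squares are SAM and black bars are group means. The AB replication sum is lowest at stage 3 (2520 TPM) and highest at stage 4 (2960 TPM), while the SAM sum lies between 2830 and 3070 TPM.

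Single genes were compared in 1 edgeR quasi-likelihood model of all 8 groups over 21414 genes. A gene is called when its Benjamini-Hochberg adjusted p over all these genes is below 0.05. Of the members, 51 replication and 79 mitosis genes had enough counts to be tested. The other 31 members, 10 for replication and 21 for mitosis, had at most 81 counts over all libraries together, and 13 of them had none. Fold changes are given on the log2 scale with their standard error. AB and SAM libraries did not overlap in CPM for 56.8%, 46.0%, 50.9% and 26.8% of all tested genes at stages 1 to 4. For replication genes these shares were 60.8%, 64.7%, 72.5% and 19.6%, and for mitosis genes 46.8%, 41.8%, 53.2% and 36.7%. AB at stage 1 had 2 libraries, so groups separate more easily there and its shares cannot be set against those of later stages.

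At stage 1, replication genes stood lower in AB: 21 of 51 were called lower and 3 higher, with a median log2 difference of -0.24. Of all tested genes 32.8% were called, 14.6% lower and 18.2% higher, with a median near 0. The mitosis genes showed no such lean, with 6 of 79 lower, 9 higher and a median of -0.06. Without AB stage 1 replicate 2, 8 replication and 7 mitosis genes were called in either direction, against 24 and 15 with it, and AB then had a single library, assumed to vary like the other groups. At stage 2 the difference was of like size, with 24 replication genes lower and 3 higher (median -0.27) and 16 mitosis genes lower and 11 higher (median -0.07). Over all genes 37.4% were called, 17.6% lower and 19.9% higher.

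After 4 weeks of cold both lists had more genes lower than higher in AB. At stage 3, 29 replication genes, or 56.9%, were lower in AB and 6 higher, with a median of -0.28. Of the mitosis genes 33, or 41.8%, were lower and 10 higher, with a median of -0.19. Of all tested genes 44.2% were called, 22.1% in each direction. After 7 weeks of cold few members were called. At stage 4 no replication gene differed between AB and SAM in edgeR's test or in DESeq2, 1 had an unadjusted p below 0.05, and the median was 0.05. A single mitosis gene was called there, an armadillo repeat kinesin (Aa_G618150) whose gene model has a premature stop, lower in AB. It had 3.01, 3.72 and 4.33 CPM in AB and 6.60, 6.04 and 5.02 CPM in SAM (log2 -0.68 ± 0.18, edgeR adjusted p = 0.0426), and its call was lost in several alternatives, among them without AB stage 4 replicate 1 and without AB stage 4 replicate 2. Of all tested genes 3.47% were called at stage 4, 1.35% higher and 2.12% lower.

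**Figure D2:**
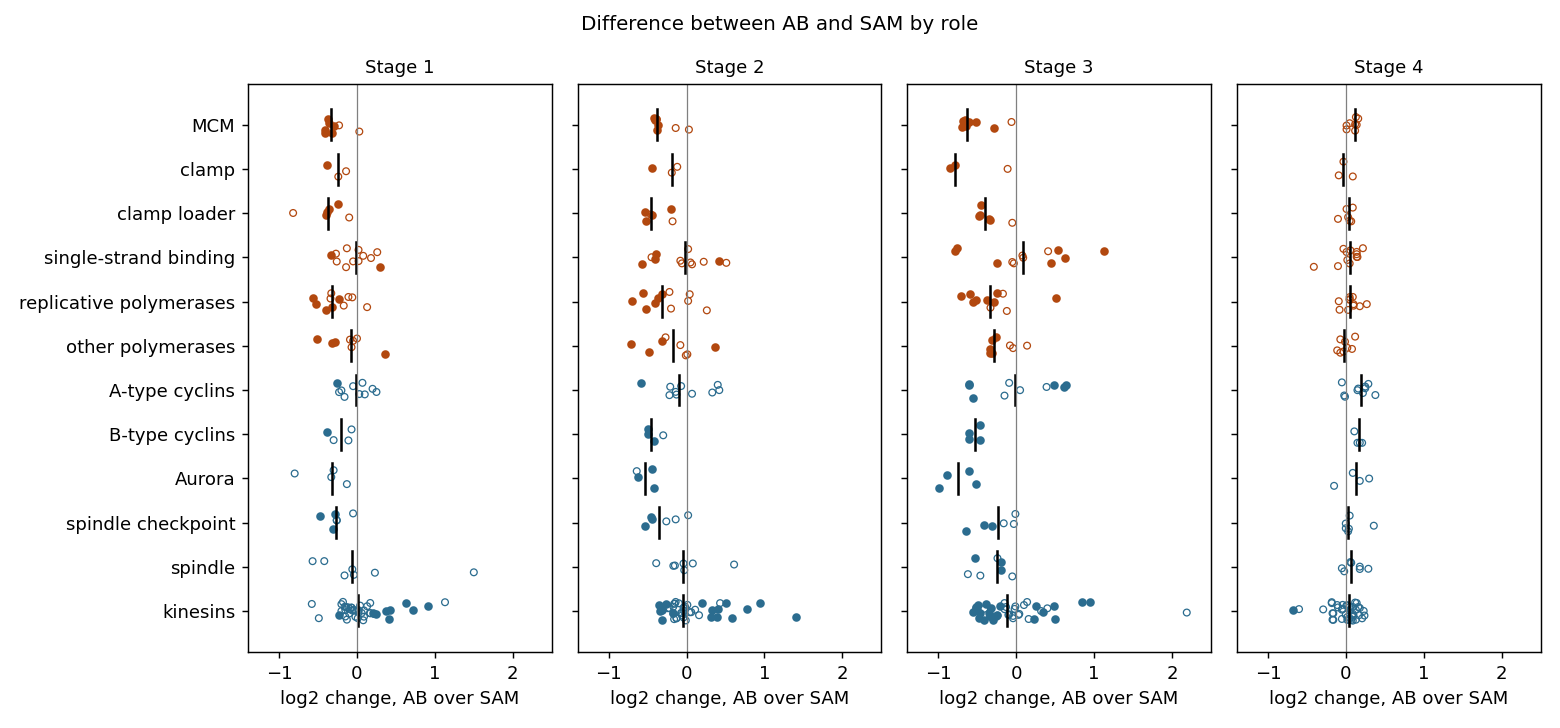
Log2 difference of AB over SAM at each of the 4 stages (panels) for tested members, by role. Replication roles are orange and stand above the mitosis roles in blue. Kinesin light chains, the GINS subunit PSF2, the helicase DNA2 and genes matched only by letters are not plotted. Filled points are called at an adjusted p below 0.05, open points are not, and black bars are medians. All MCM, clamp loader, Aurora and B-type cyclin genes lie left of 0 at stage 3, and the medians of the plotted roles lie between -0.03 and 0.19 at stage 4.

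Within AB, the step that moved both lists was the last one. From stage 3 to stage 4, 27 of 51 replication genes rose in AB and 5 fell (median 0.23), and 38 of 79 mitosis genes rose and 10 fell (median 0.30). Of all tested genes 47.3% were called, 23% rising and 24.2% falling, with a median near 0. In SAM few members were called in this step: 0 replication genes rose and 1 fell, with 6 at an unadjusted p below 0.05, and 2 mitosis genes rose and 0 fell, while 9.18% of all genes were called, 5.14% rising and 4.04% falling. DESeq2 called 2 replication and 6 mitosis genes in that SAM step, and leaving out 1 library in turn gave 0 to 2 calls in either list. The tissue difference in the step was tested directly as an interaction. It was higher in AB for 24 replication genes and lower for 4 (median 0.34), and higher for 26 mitosis genes and lower for 7 (median 0.24), against 29.8% of all genes, 14.7% higher and 15.1% lower. AB at stage 3 enters both the stage 3 difference and this step, so the comparisons share samples. With that stated, 25 replication genes (49.0%) and 31 mitosis genes (39.2%) were lower in AB at stage 3 and rose in AB from stage 3 to stage 4, as 16.3% of all tested genes did.

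**Figure D3:**
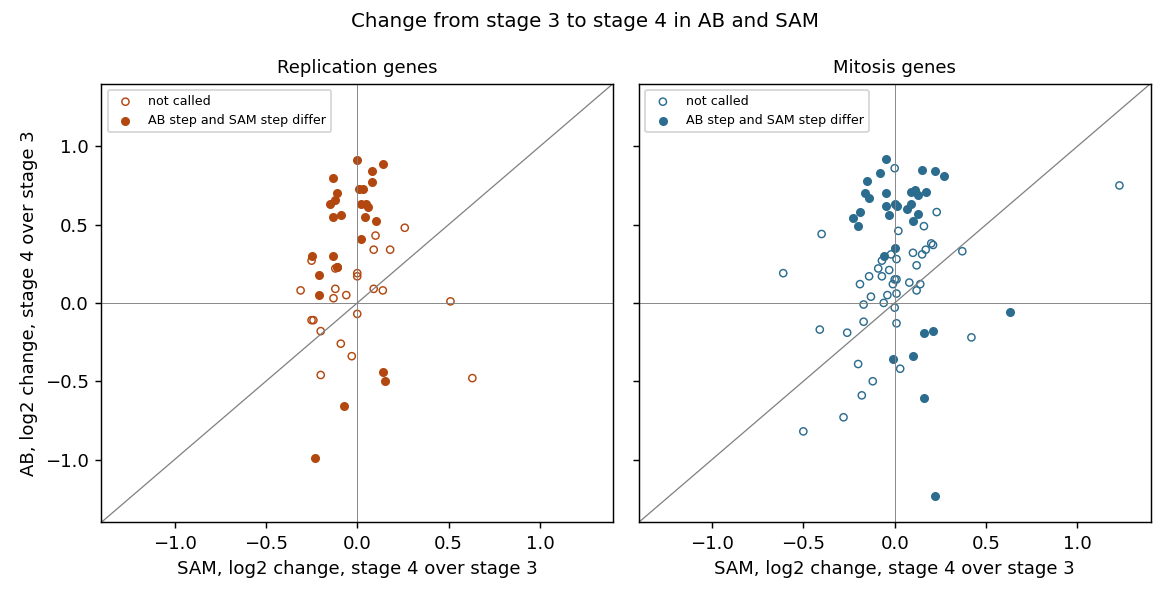
Log2 change from stage 3 to stage 4 in SAM (x axis) and in AB (y axis) for each tested member, replication and mitosis apart; filled points have a called tissue difference, the diagonal marks an equal change, and 1 mitosis gene with a change of 2.87 in SAM lies outside the axes. In AB 39 of 51 replication genes and 59 of 79 mitosis genes lie above 0, in SAM 25 and 42.

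The earlier steps moved fewer members. From stage 1 to stage 2 no member was called in AB by edgeR or DESeq2, with 6 replication and 11 mitosis genes at an unadjusted p below 0.05, while 1.16% of all genes were called, 0.743% higher and 0.420% lower. In SAM that step called 1 replication gene higher and 1 lower, and 4 mitosis genes higher and 3 lower, with 7.58% of all genes called, 4.52% higher and 3.06% lower. Leaving out each of these SAM libraries in turn gave 0 to 3 replication and 1 to 5 mitosis calls, the fewest without SAM stage 1 replicate 1. The tissue difference in the step from stage 1 to stage 2 called no member by either tool, with 1 replication and 2 mitosis genes at an unadjusted p below 0.05, and 0.0981% of all genes called, 0.0327% higher and 0.0654% lower. Entry into cold, from stage 2 to stage 3, called 2 replication genes higher and 7 lower in AB and 5 mitosis genes higher and 7 lower, against 22.2% of all genes, 10.2% higher and 12% lower. The 9 replication calls were 4 without AB stage 2 replicate 3 and 5 without AB stage 3 replicate 1, and the 12 mitosis calls were 4 without AB stage 2 replicate 2.

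In SAM, entry into cold called 6 replication genes higher and 9 lower, and 10 mitosis genes higher and 7 lower, with 24.3% of all genes called, 11.9% higher and 12.3% lower. The 15 replication calls were 6 without SAM stage 2 replicate 1 and 7 without SAM stage 3 replicate 2. The 17 mitosis calls were 6 without SAM stage 3 replicate 1, 10 without SAM stage 3 replicate 3, and 11 without SAM stage 2 replicate 1 or replicate 2. The tissue difference in this step was called for no replication gene, with 12 at an unadjusted p below 0.05 and 1 called by DESeq2, and for 3 mitosis genes, with 4.66% of all genes called, 2.66% higher and 2% lower. Leaving out AB stage 3 replicate 3 gave 3 replication and 9 mitosis calls, and leaving out AB stage 3 replicate 1 gave no mitosis call. Leaving out AB stage 2 replicate 2 or 3, SAM stage 2 replicate 1, or SAM stage 3 replicate 1 or 3 gave 1 mitosis call each, and leaving out AB stage 2 replicate 1 gave 1 replication call.

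The MCM genes, most of whose products form or help the replicative helicase, moved largely alike, apart from MCM10. All 8 were tested, and 6, 6 and 7 were lower in AB at stages 1, 2 and 3, with none called at stage 4. Of all genes 14.6%, 17.6% and 22.1% were lower at stages 1 to 3. All 8 rose in AB from stage 3 to stage 4, none was called in SAM, and the tissue difference was called for 7. In that step 23% of all genes rose in AB, and the tissue difference was called for 29.8%. Their summed level in AB averaged 554 ± 68.7, 500 ± 18.1, 442 ± 46.2 and 680 ± 35.6 TPM at stages 1 to 4, and in SAM 674 ± 13.6, 632 ± 30.3, 631 ± 44.4 and 640 ± 20.3 TPM (SD). MCM5 (Aa_G194540, chromosome 3, positions 25059198 to 25063292, minus strand) had 191, 220 and 242 CPM in AB at stage 3, against 338, 292 and 308 CPM in SAM. At stage 4 it had 304, 327 and 334 CPM in AB and 290, 292 and 298 CPM in SAM. The groups did not overlap at either stage, and the order of the tissues was reversed, although the stage 4 difference was not called. Such separation was frequent, in 50.9% of all tested genes at stage 3 and 26.8% at stage 4. The log2 difference was -0.52 ± 0.08 at stage 3 (edgeR adjusted p = 2.87e-05) and 0.13 ± 0.08 at stage 4 (0.439). From stage 3 to stage 4 MCM5 rose by 0.56 ± 0.08 in AB (edgeR adjusted p = 1.07e-05), was not called in SAM (-0.09 ± 0.08, 0.525), and the difference between these steps was 0.65 ± 0.11 (0.000276).

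MCM4 (Aa_G543470), another helicase subunit, had 150, 175 and 203 CPM in AB at stage 3 and 297, 268 and 271 CPM in SAM. Its stage 4 levels were 260, 297 and 277 CPM in AB and 256, 254 and 260 CPM in SAM. AB lay wholly below SAM at stage 3, and the groups touched at stage 4. The stage 3 difference was -0.66 ± 0.10 (edgeR adjusted p = 1.46e-05) and the rise in AB was 0.66 ± 0.10 (1.28e-05). MCM2 (Aa_G92320) behaved alike, at -0.61 ± 0.09 at stage 3 (edgeR adjusted p = 1.41e-05) and 0.73 ± 0.09 for the rise in AB (1.41e-06). A gene described only as an MCM family member (Aa_G123810) had 102, 138 and 142 CPM in AB at stage 3 and 217, 201 and 200 CPM in SAM (-0.70 ± 0.10, edgeR adjusted p = 1.06e-05).

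Among MCM genes outside the core helicase, MCM8 (Aa_G34730), known for a role in recombination, had 21.2, 24.2 and 24.6 CPM in AB at stage 3 and 37.7, 34.5 and 36.8 CPM in SAM. The groups were far apart (-0.64 ± 0.09, edgeR adjusted p = 6.22e-06), and the tissue difference in the last step was 0.78 ± 0.12 (8.89e-05). MCM10 (Aa_G36560), which helps to activate the helicase, was the exception to the tissue difference. It had 27.8, 30.4 and 31.2 CPM in AB at stage 3 and 35.1, 25.7 and 32.4 CPM in SAM, with full overlap (-0.06 ± 0.11, edgeR adjusted p = 0.694). It rose in AB at stage 4 (0.48 ± 0.11, edgeR adjusted p = 0.00126), where it had 37.9, 43.2 and 43.9 CPM, against 37.9, 37.5 and 36.3 CPM in SAM, and its tissue difference in the step was not called (0.22 ± 0.16, 0.303). Of the 6 MCM calls at stage 1, 5 were lost without AB stage 1 replicate 2, where the adjusted p was 0.521 for MCM3 (Aa_G206370), 0.216 for MCM4, 0.126 for MCM2, 0.206 for MCM8 and 0.143 for Aa_G123810, and the call of MCM5 was kept. Those of MCM8 (0.0942) and Aa_G123810 (0.0572) were also lost without SAM stage 1 replicate 1. The MCM3 call was lost in 7 of 10 alternatives, among them RLE size factors, library size alone, the replicate block and each SAM library of stage 1 left out.

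The sliding clamp followed the MCM genes in its summed level. The summed level of the 3 PCNA genes averaged 356 ± 42.2, 288 ± 20.7, 244 ± 29.2 and 399 ± 24.7 TPM in AB at stages 1 to 4, against 439 ± 24.6, 379 ± 37.8, 402 ± 28.9 and 378 ± 12.6 TPM in SAM (SD). Nearly all of it came from Aa_G275760 (chromosome 1, positions 4140348 to 4141546, plus strand), the most abundant member of either list, with a mean of 322 TPM over the libraries. It had 255 and 216 CPM in AB at stage 1, against 308, 325 and 290 CPM in SAM. At stage 3 it had 135, 163 and 182 CPM in AB and 308, 268 and 287 CPM in SAM, and at stage 4 it had 255, 304 and 277 CPM in AB and 270, 265 and 251 CPM in SAM. AB lay wholly below SAM at stages 1 and 3 and overlapped it at stage 4. Its rise in AB over the last step was 0.80 ± 0.11 (edgeR adjusted p = 8.1e-06) and the tissue difference in that step was 0.93 ± 0.16 (0.000212). The stage 1 call (-0.39 ± 0.12, edgeR adjusted p = 0.0208) was lost without AB stage 1 replicate 2 (0.236), SAM stage 1 replicate 1 (0.0571) or SAM stage 1 replicate 2 (0.0873).

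A second PCNA gene at a far lower level, Aa_G142680, followed the same course, with 7.60, 11.2 and 11.2 CPM in AB at stage 3 and 17.2, 17.8 and 16.5 CPM in SAM (-0.78 ± 0.14, edgeR adjusted p = 0.000192). The remaining one, Aa_G199780, whose gene model has a premature stop, was called in no comparison, with a stage 3 difference of -0.11 ± 0.11 (edgeR adjusted p = 0.424). Reads of near-identical copies could be split between these genes by the counting, which the sources used here do not describe.

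Of the clamp loader genes, the replication factor C subunits, 4, 4 and 5 of 6 tested were lower in AB at stages 1 to 3 and none at stage 4, and 5 rose in AB over the last step. Over all genes 14.6%, 17.6% and 22.1% were lower at stages 1 to 3, and 23% rose in that step. Their sum averaged 335 ± 26.6, 322 ± 9.38, 297 ± 9.38 and 374 ± 11.3 TPM in AB at stages 1 to 4 and 395 ± 4.54, 402 ± 7.15, 371 ± 20 and 362 ± 6.95 TPM in SAM (SD). Subunit 2 (Aa_G95360) had 51.3, 48.8 and 56.5 CPM in AB at stage 2, against 74.3, 70.3 and 80.9 CPM in SAM, with no overlap (-0.53 ± 0.07, edgeR adjusted p = 7.77e-06).

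The single-strand binding genes, the subunits of replication factor A, had calls in both directions at shares near those of all genes. At stage 3, 3 of 12 tested were lower and 4 higher in AB, against 22.1% of all genes each way. Over the last step in AB 3 rose and 2 fell, against 23% and 24.2% of all genes. Their sum hardly differed, at 491 ± 3.76, 500 ± 6.14, 502 ± 29.4 and 514 ± 9.85 TPM in AB over stages 1 to 4 and 466 ± 14.8, 475 ± 2.79, 467 ± 5.50 and 480 ± 20 TPM in SAM (SD). Among those that followed the MCM course, the middle subunit RPA2 (Aa_G111930) had 33.9, 39.8 and 43.3 CPM in AB at stage 3 and 65.5, 62.9 and 69.8 CPM in SAM. Its AB values at stage 4, 74.1, 75.1 and 70 CPM, overlapped the 72.9, 67 and 58.6 CPM of SAM. The stage 3 difference was -0.76 ± 0.11 (edgeR adjusted p = 1.09e-05) and the rise in AB 0.91 ± 0.11 (1.09e-06). A large subunit gene, RPA1 (Aa_G78150), had 13, 11.7 and 17.5 CPM in AB at stage 3 and 26.5, 22.4 and 24.2 CPM in SAM (-0.79 ± 0.13, edgeR adjusted p = 5.89e-05).

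In the other direction, a gene described as the 51 kDa subunit (Aa_G637490) had 58.7, 56.8 and 48.1 CPM in AB at stage 3 and 33.0, 35.6 and 44.1 CPM in SAM (0.54 ± 0.09, edgeR adjusted p = 0.00011). At stage 4 it had 41.5, 38.9 and 35.5 CPM in AB, against 43.3, 40.9 and 40.2 CPM in SAM, with overlap, after a fall in AB of -0.50 ± 0.09 (edgeR adjusted p = 0.000216). Aa_G391100, of the same group, had 71.3, 63.9 and 48.9 CPM in AB at stage 3 and 36.6, 42.5 and 40.1 CPM in SAM (0.63 ± 0.13, edgeR adjusted p = 0.000445). Its tissue difference in the last step (-0.58 ± 0.18, edgeR adjusted p = 0.0187) was lost without AB stage 3 replicate 1 (0.0548) or SAM stage 3 replicate 1 (0.0528).

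Of the replicative polymerase genes (alpha, delta and epsilon, which prime and extend the new strands), 5, 6 and 7 of 11 tested were lower in AB at stages 1, 2 and 3. Lower were 14.6%, 17.6% and 22.1% of all genes. In AB over the last step 5 rose and 1 fell, against 23% and 24.2% of all genes. In SAM none was called, with 0 at an unadjusted p below 0.05. A short model of epsilon subunit 1 (Aa_G635450), given below, was higher in AB at stage 3 and fell in AB over the last step. The alpha B subunit (Aa_G184450) had 64.4, 74.8 and 74.1 CPM in AB at stage 3 and 115, 103 and 103 CPM in SAM. After 7 weeks of cold it had 99.0, 105 and 109 CPM in AB and 99.7, 96.1 and 98.6 CPM in SAM. The groups lay apart at stage 3 and overlapped at stage 4. The log2 difference was -0.52 ± 0.08 at stage 1 (edgeR adjusted p = 4.12e-05), -0.52 ± 0.07 at stage 2 (9.73e-06), -0.59 ± 0.07 at stage 3 (2.02e-06) and 0.09 ± 0.07 at stage 4 (0.593). Epsilon subunit 2 (Aa_G8770) had 24.4, 27.0 and 29.9 CPM in AB at stage 3 and 49.4, 38.4 and 45.3 CPM in SAM (-0.71 ± 0.12, edgeR adjusted p = 6.14e-05).

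Epsilon subunit 3 (Aa_G35900) kept another course. Its AB libraries had 39.2 and 39.2 CPM at stage 1 and 53.5, 48.5 and 56.3 CPM at stage 3, against 61.2, 58.3 and 55 CPM at stage 1 and 61.6, 62.3 and 64.7 CPM at stage 3 in SAM. The difference was smaller at each later stage, which was not tested as such: it was -0.57 ± 0.08 at stage 1 (edgeR adjusted p = 7.49e-06), -0.32 ± 0.07 at stage 2 (0.000696) and -0.25 ± 0.07 at stage 3 (0.00435). The tissue difference in the step from stage 2 to stage 3 was not called (0.07 ± 0.09, edgeR adjusted p = 0.714), and the gene rose in that step in AB (0.34 ± 0.07, 0.00136) and in SAM (0.27 ± 0.07, 0.00599).

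Polymerase V (Aa_G51440), counted here by its name although its yeast namesake acts in ribosomal DNA transcription, was called on entry into cold and, in AB, over the last step, and not between tissues. It had 161, 170 and 169 CPM in AB at stage 2 and 88.6, 119 and 117 CPM at stage 3. In SAM it had 161, 164 and 171 CPM at stage 2 and 113, 128 and 100 CPM at stage 3. In both tissues all stage 3 libraries lay below all stage 2 libraries, with changes of -0.63 ± 0.10 in AB (edgeR adjusted p = 0.000158) and -0.54 ± 0.10 in SAM (0.000509). AB and SAM differed at no stage by this test, the stage 3 difference being -0.08 ± 0.10 (edgeR adjusted p = 0.543). At stage 4 the AB libraries had 129, 147 and 135 CPM, all above those of stage 3 and below those of stage 2. That rise in AB (0.34 ± 0.10, edgeR adjusted p = 0.00713) was lost without AB stage 3 replicate 1 (0.0792) or AB stage 4 replicate 2 (0.061).

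The B-type cyclins, which drive entry into mitosis, came close to the MCM genes in pattern. Of 4 tested genes 1, 3 and 4 were lower in AB at stages 1, 2 and 3 and none at stage 4, and all 4 rose in AB over the last step. Over all genes 14.6%, 17.6% and 22.1% were lower at stages 1, 2 and 3, and 23% rose in that step. Their sum averaged 225 ± 20.1, 201 ± 12.3, 220 ± 50.4 and 328 ± 12.5 TPM in AB at stages 1 to 4, and 255 ± 2.97, 272 ± 3.37, 304 ± 35.8 and 292 ± 5.31 TPM in SAM (SD). A gene described as cyclin b (Aa_G216070, chromosome 3, positions 6330309 to 6332287, minus strand) had 65.7, 58.7 and 86.6 CPM in AB at stage 3, against 112, 92.6 and 115 CPM in SAM. At stage 4 it had 99.5, 115 and 101 CPM in AB and 92.8, 92.7 and 93.8 CPM in SAM. AB replicate 3 was the highest of its group at stage 3 and still lay below every SAM library, and at stage 4 AB lay above SAM. The tissues did not overlap for 50.9% of all tested genes at stage 3 and 26.8% at stage 4. The stage 3 difference was -0.60 ± 0.10 (edgeR adjusted p = 9.41e-05), the rise in AB 0.58 ± 0.10 (0.0001), and the tissue difference in the step 0.78 ± 0.14 (0.000516). Its stage 1 call, the 1 counted above, was lost without AB stage 1 replicate 1 (log2 -0.409) or replicate 2 (-0.365). AB at stage 1 then had a single library.

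A mitotic cyclin of type S13-6 (Aa_G153290) had 74.2, 63.6 and 97.2 CPM in AB at stage 3 and 134, 99.7 and 121 CPM in SAM (-0.60 ± 0.12, edgeR adjusted p = 0.00039). Cyclin B3-1 (Aa_G65550) had 15.5, 20.1 and 26.5 CPM in AB at stage 3 and 29.6, 27.9 and 28.5 CPM in SAM (-0.47 ± 0.13, edgeR adjusted p = 0.00561), a call lost without AB stage 3 replicate 1 (0.0569). In each of these genes AB replicate 3 was the highest AB library at stage 3, and the 2 groups did not overlap, as in 50.9% of all tested genes.

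**Figure D4:**
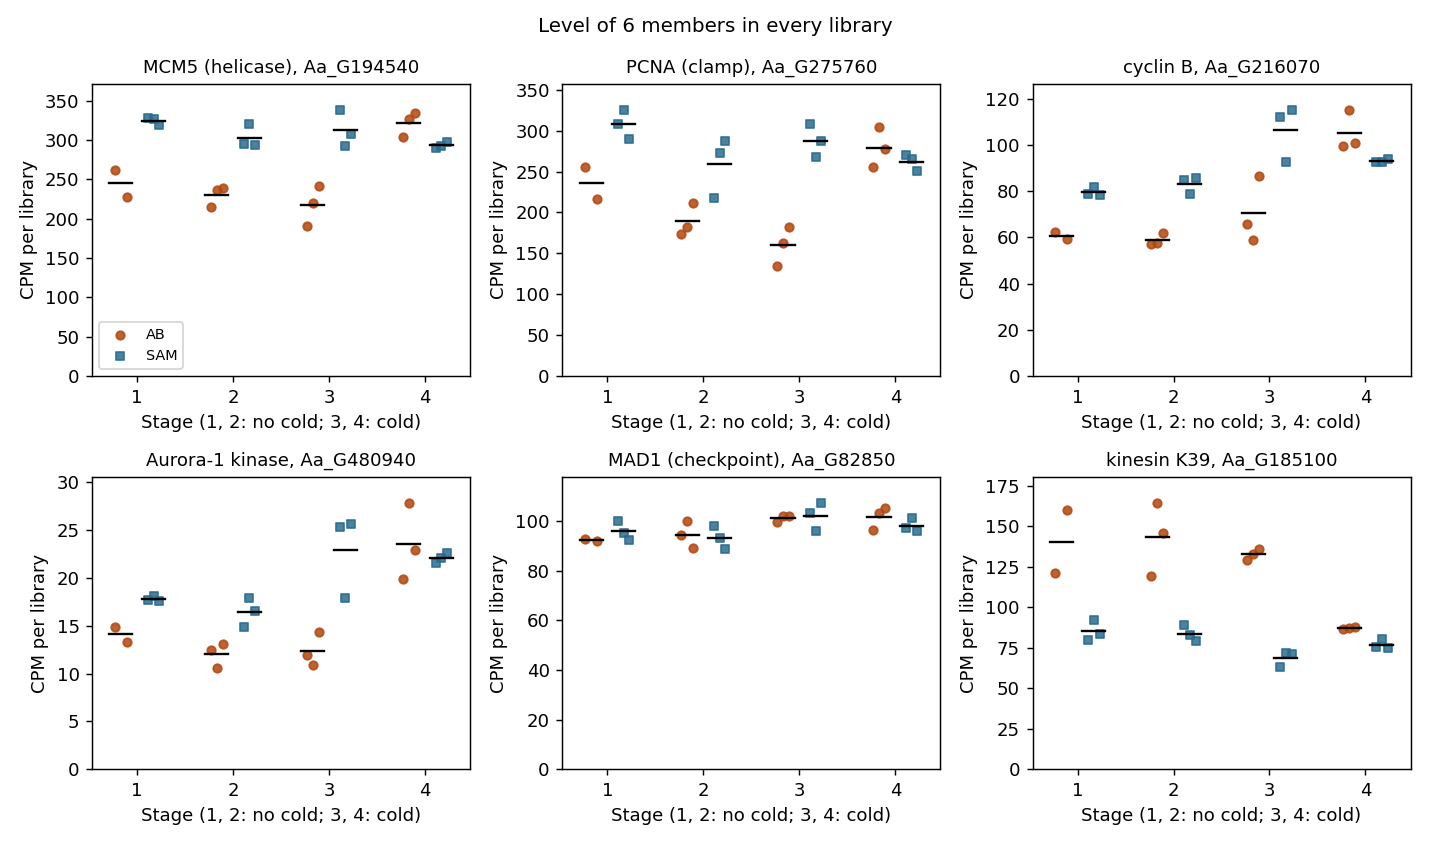
Level in CPM, from 0, of MCM5, PCNA (Aa_G275760), cyclin b (Aa_G216070), Aurora-1 (Aa_G480940), MAD1 (Aa_G82850) and kinesin K39 (Aa_G185100) in every library by stage; orange circles are AB, blue squares are SAM and black bars are means. The first 4 genes have AB below SAM at stage 3 and beside or above it at stage 4, MAD1 is level throughout, and K39 has AB above SAM at every stage, with the smallest gap at stage 4.

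The A-type cyclins, which act in S phase and at entry into mitosis, had calls in both directions at stage 3, each way near the background. There, 3 of 10 tested were lower in AB and 3 higher, against 22.1% of all genes each way. Over the last step in AB 4 rose and 2 fell, against 23% and 24.2% of all genes. A cyclin a-like gene (Aa_G382680) had 69.4, 71.7 and 100 CPM in AB at stage 3, against 126, 116 and 122 CPM in SAM, and 125, 137 and 129 CPM in AB at stage 4, against 119, 115 and 118 CPM in SAM. It was lower in AB at stage 3 (-0.60 ± 0.10, edgeR adjusted p = 0.000107) and rose in AB (0.70 ± 0.10, 1.8e-05). The cyclin A3-1 genes Aa_G263150 and Aa_G263160 lie 959 bp apart on the minus strand of chromosome 6. They differed by -0.56 ± 0.15 (edgeR adjusted p = 0.0045) and -0.61 ± 0.13 (0.000733) at stage 3. As near copies side by side they may share reads, so their likeness is uncertain. Another cyclin a-like gene, Aa_G951460, was higher in AB at stage 3 (0.61 ± 0.17, edgeR adjusted p = 0.0068).

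Among the Aurora kinases, known for their work on centromeres and the spindle, 0, 3 and 4 of 4 genes were lower in AB at stages 1, 2 and 3, and 3 rose in AB over the last step. The shares of all genes were 14.6%, 17.6% and 22.1% lower, and 23% rising. Their sum averaged 112 ± 6.39, 92.5 ± 8.33, 90.9 ± 16.5 and 140.0 ± 10.3 TPM in AB at stages 1 to 4 and 126 ± 0.731, 127 ± 5.81, 134 ± 12.1 and 123 ± 3.48 TPM in SAM (SD). An Aurora-1 gene (Aa_G480940) had 11.9, 10.9 and 14.4 CPM in AB at stage 3 and 25.3, 17.9 and 25.7 CPM in SAM. At stage 4 it had 19.9, 27.8 and 22.9 CPM in AB, a range that spans the 21.6, 22.1 and 22.6 CPM of SAM. AB lay wholly below SAM at stage 3, by -0.89 ± 0.14 (edgeR adjusted p = 3.47e-05), and the rise in AB was 0.92 ± 0.14 (1.88e-05). The other Aurora-1 gene (Aa_G404980, chromosome 7) differed by -0.52 ± 0.11 (edgeR adjusted p = 0.000647). Aurora-3 (Aa_G16180) had 18.6, 17 and 23.9 CPM in AB at stage 3 and 30.0, 30.3 and 30.4 CPM in SAM, and 34.7, 37.1 and 33.8 CPM in AB at stage 4, against 29.5, 27.1 and 29.1 CPM in SAM. Its order thus turned between the stages without overlap in either, although the stage 4 difference was not called (0.30 ± 0.13, edgeR adjusted p = 0.226). Groups without overlap were frequent, in 50.9% of all tested genes at stage 3 and 26.8% at stage 4.

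The spindle checkpoint genes were mixed. Of 6 tested 3 were lower in AB at each of stages 1, 2 and 3, and 2 rose in AB over the last step. The shares of all genes were 14.6%, 17.6% and 22.1% lower, and 23% rising. A gene described as a mitotic checkpoint protein (Aa_G92530) had 43.5, 41.5 and 52 CPM in AB at stage 3 and 74.0, 69.8 and 69.2 CPM in SAM (-0.64 ± 0.09, edgeR adjusted p = 1.31e-05), and rose in AB by 0.62 ± 0.09 (1.47e-05). Its stage 1 call was lost with RLE size factors, library size alone, DESeq2 and the replicate block. That call was also lost with each SAM library of stage 1 left out. MAD2 (Aa_G83430), which holds back anaphase, had 54.9, 46.1 and 65.1 CPM in AB at stage 3 and 80.3, 63.3 and 77.0 CPM in SAM. These groups overlapped, and the call (-0.41 ± 0.13, edgeR adjusted p = 0.0132) was lost without AB stage 3 replicate 2 (0.0848) or either of SAM stage 3 replicates 1 (0.0672) and 3 (0.0715). The stage 2 call of MAD2 was lost without AB stage 2 replicate 2 (edgeR adjusted p = 0.0598) or SAM stage 2 replicate 3 (0.0512). Its partner MAD1 (Aa_G82850) was called in no comparison, with a stage 3 difference of -0.01 ± 0.06 (edgeR adjusted p = 0.915).

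Of the spindle genes 3 of 7 tested were lower in AB at stage 3, and 3 rose in AB over the last step, against 22.1% and 23% of all genes. The homolog of SKA1 (Aa_G353950), which in animals ties kinetochores to microtubules, had 9.78, 10.5 and 11.2 CPM in AB at stage 3 and 15.8, 13.8 and 15.6 CPM in SAM. It rose in AB (0.85 ± 0.11, edgeR adjusted p = 3.18e-06) to 18.5, 20.9 and 17.5 CPM at stage 4, against 16.6, 18.3 and 15.3 CPM in SAM, where the groups overlapped.

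The kinesins, the largest role with 59 genes of which 42 were tested, had calls in both directions. At stages 1, 2 and 3 there were 8, 10 and 7 higher in AB and 1, 6 and 16 lower, with medians of 0.01, -0.04 and -0.11. Of all genes 18.2%, 19.9% and 22.1% were higher and 14.6%, 17.6% and 22.1% lower, so the higher calls were near the background. Over the last step in AB 21 rose and 8 fell (median 0.31), against 23% and 24.2% of all genes. The tissue difference was higher for 12 and lower for 7, against 14.7% and 15.1% of all genes. The falling and lower calls were thus near the background. The rising ones included a kif22-like gene (Aa_G85250), whose animal namesake moves chromosomes, with 60.1, 51.6 and 77.2 CPM in AB at stage 3 and 91.8, 83.4 and 95.2 CPM in SAM. Its stage 3 difference was -0.52 ± 0.10 (edgeR adjusted p = 0.000248) and its rise in AB 0.72 ± 0.10 (5.49e-06). A bipolar kinesin (Aa_G249290), of the class that slides spindle microtubules apart, had 60.7, 54.9 and 82.1 CPM in AB at stage 3 and 103, 92.7 and 93.3 CPM in SAM. It differed by -0.55 ± 0.10 at stage 3 (edgeR adjusted p = 0.000221) and rose in AB by 0.63 ± 0.10 (4.44e-05).

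Kinesin K39 (Aa_G185100, chromosome 6, positions 33236215 to 33241133, plus strand) went the other way and was the member with the strongest stage 3 call among those described. It had 121 and 160 CPM in AB at stage 1, against 79.6, 91.9 and 83.7 CPM in SAM. At stage 3 it had 129, 133 and 136 CPM in AB and 63, 71.8 and 71.3 CPM in SAM, and at stage 4 it had 86.7, 86.9 and 87.5 CPM in AB and 75.3, 80.3 and 75.1 CPM in SAM. AB lay above SAM in each of these stages, and the gap shrank at stage 4. The difference was 0.72 ± 0.11 at stage 1 (edgeR adjusted p = 3.3e-05), 0.77 ± 0.10 at stage 2 (4.23e-06), 0.95 ± 0.10 at stage 3 (3.91e-07) and 0.18 ± 0.10 at stage 4 (0.404). The fall in AB over the last step was -0.61 ± 0.10 (edgeR adjusted p = 5.59e-05). A kif2a-like gene (Aa_G241910), whose animal namesake shortens microtubules, was also higher in AB at stage 3, with 154, 151 and 162 CPM against 125, 131 and 112 CPM in SAM (0.35 ± 0.08, edgeR adjusted p = 0.000878).

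A gene described as phragmoplast orienting kinesin 2 (Aa_G901520), in Arabidopsis a factor that guides the new cell wall, rose in AB on entry into cold (0.65 ± 0.17, edgeR adjusted p = 0.0089), a call lost without AB stage 3 replicate 1 (0.0788). It had 15.8, 14.1 and 13.1 CPM in AB at stage 2, 29.1, 21.3 and 16.7 CPM at stage 3 and 9.91, 9.43 and 9.24 CPM at stage 4. In SAM it had 16.7, 15 and 15.4 CPM at stage 2, 14.1, 12.4 and 10.5 CPM at stage 3 and 12.1, 15 and 16.3 CPM at stage 4. All AB libraries of stage 3 lay above all those of SAM, and the order was reversed at stage 4. Without overlap were 50.9% of all tested genes at stage 3 and 26.8% at stage 4. The stage 3 difference was 0.85 ± 0.17 (edgeR adjusted p = 0.000404), and the step from stage 3 to stage 4 in AB was -1.23 ± 0.17 (8.36e-06). Its tissue difference on entry into cold was 0.99 ± 0.24 (edgeR adjusted p = 0.0218), lost without AB stage 2 replicate 3 (0.0536), AB stage 3 replicate 1 (0.0651), SAM stage 2 replicate 1 (0.0544) or SAM stage 3 replicate 3 (0.0541). The coding sequence of this model is 492 bp, so it is a short model for a kinesin.

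Coding sequences under 600 bp, a limit chosen after the values were seen, were rare among the replication and mitosis genes lower in AB at stage 3 or rising afterwards. Of the replication genes at stage 3, 4 of the 6 higher in AB were that short, as were 1 of the 29 lower and 5 of the 16 not called. Over the last step in AB, 0 of the 27 that rose, 3 of the 5 that fell and 7 of the 19 not called were. Of the mitosis genes at stage 3, 5 of the 10 higher in AB were under 600 bp, 1 of the 33 lower and 10 of the 36 not called. Over the last step in AB, 0 of the 38 that rose, 4 of the 10 that fell and 12 of the 31 not called were, so genes that fell were short about as often as those not called. The median coding length was 2410 bp for the falling and 2250 bp for the rising mitosis genes. One short member is a model described as polymerase epsilon subunit 1 (Aa_G635450) with 255 bp of coding sequence on an unplaced scaffold. It had 97.6, 81.9 and 71.1 CPM in AB at stage 3 and 57.1, 55.7 and 63.1 CPM in SAM (0.51 ± 0.12, edgeR adjusted p = 0.00205). Another, matched only by the letters of its name, is an RNA-directed polymerase-like gene (Aa_G483270) with 198 bp, not a part of the replication machinery. It had 7.81, 7.90 and 7.89 CPM in AB at stage 2, against 4.53, 3.93 and 3.51 CPM in SAM (0.98 ± 0.16, edgeR adjusted p = 5.52e-05).

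By mean TPM over the 8 groups, AB at stage 3 held the lowest level for 23 of 51 replication genes and 26 of 79 mitosis genes, against 17.2% of all tested genes. AB at stage 4 held the highest for 10 replication and 35 mitosis genes, against 11.7% of all tested genes, and SAM at stage 1 held the highest for 14 replication genes, against 10.9%. Lower in AB at each of stages 1, 2 and 3 were 19 replication genes (37.3%) and 2 mitosis genes (2.53%), against 7.21% of all tested genes; these comparisons share no libraries with each other. The count of 19 rests on AB stage 1 replicate 2, since without it 8 replication genes were called at stage 1 in either direction, so that at most 8 could meet the rule. Called in no comparison at all were 5 replication genes (9.8%) and 13 mitosis genes (16.5%), against 22.3% of all tested genes.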

How the data were processed

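RNA of AB and SAM was sequenced in 23 libraries of 8 groups, taken from the labels. The authors deposited 1 table with counts, which the file header calls total mapped reads, and TPM (reads scaled by gene length and library total) per gene. Read quality was looked at with FastQC, per the submitters' processing notes, while how reads were aligned and counted, and whether by strand, is not given in the sources used here. Another 46 columns of values by library, RPKM and CPM, were not used. Gene positions, 1-based, are from the deposited annotation, in which version 4 gene models were moved to version 5 of the assembly by protein alignment, per the file header. Of the gene IDs in the deposited expression data, 4750 stand at more than 1 locus, and all 161 members at 1. Lengths are the summed coding sequence of each gene model, and 99.5% of these sums are multiples of 3. TPM are the authors' values. CPM in the text were computed from the counts with TMM scaling.

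Genes with enough counts were kept with filterByExpr in edgeR 4.0.16 (R 4.3.3; minimum count 10, minimum total 15), scaled by TMM and fitted with 1 coefficient per group (glmQLFit, robust, and glmQLFTest). The p-values were adjusted by Benjamini-Hochberg over all 21414 genes in each of 13 comparisons, with a threshold of 0.05, and the procedure was tested on simulated data. Tissues were compared at each stage, AB over SAM, as were each step to the next stage within a tissue, and the tissue difference in each step. Alternatives were RLE size factors, library size alone, DESeq2 1.42.0 on the same genes, no low-count filter, the replicate number as a block, and each library left out in turn. The totals of 12247645 to 26218502 counts limit precision mainly for genes of a few CPM. The replicates of a group differed by more than sampling noise in every pair, so all 23 were kept. The p-values measure the spread between pools.

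Same-numbered AB and SAM libraries deviated together in all 3 pairs at stage 2 (r = 0.187, 0.254 and 0.155 across genes) and at stage 3 (r = 0.19, 0.134 and 0.173), and not in every pair elsewhere. The labels do not say what a number marks. A block within these 2 stages was therefore added after the data were seen. It moved no count of calls by more than 1.5 times.

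The members, their roles, the other gene lists and the tests were chosen with earlier results of these data known. Every tested MCM, clamp, cyclin, Aurora and checkpoint gene could be named. Of the other members, the rule allowed the 5 with the largest absolute change among those called in a comparison and the 3 most abundant called in none, per list. Coding length and the genes named beside the members were chosen after their values were seen. No sequences were used here.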

Additional observations from a re-analysis of the deposited data

Results flagged for a closer look

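The results below had a different change in AB and in SAM over the same step, by the interaction test in edgeR. Groups of 2 or 3 libraries are too small to test a single library as an outlier.

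On entry into cold, from stage 2 to stage 3, 3 of 79 tested mitosis genes had such a difference. Of all tested genes 4.66% had one, so the count of 3 was near the background. Phragmoplast orienting kinesin 2 (Aa_G901520) changed by 0.99 more in AB on the log2 scale. Armadillo repeat kinesin 2 (Aa_G94580) differed by -0.35 ± 0.10 (edgeR adjusted p = 0.0455). It had 46.2, 51.6 and 49.3 CPM in AB at stage 3, against 62.6, 69.7 and 66.1 CPM in AB at stage 2, and 52.5, 53.8 and 57.1 CPM in SAM at stage 3, against 60.9, 60.6 and 51.6 CPM in SAM at stage 2. Its AB groups lay apart and its SAM groups overlapped. A kinesin heavy chain gene (Aa_G146580) differed by -0.57 ± 0.14 (0.0228). It had 16.9, 18.3 and 17.6 CPM in AB at stage 3, against 21.5, 26.3 and 21.6 CPM in AB at stage 2, and 23.4, 19.2 and 20.2 CPM in SAM at stage 3, against 18.0, 20.1 and 17.6 CPM in SAM at stage 2. Both genes fell in AB by edgeR's test, and neither was called in SAM. These last 2 were named because the count is 3, after their values were seen. Each of the 3 calls was lost when certain single libraries were left out, and that of Aa_G94580 also with RLE size factors (0.0511), library size alone (0.0611), no low-count filter (0.0923) and the replicate block (0.0508).

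In the step from stage 3 to stage 4, 29.8% of all tested genes were called, 14.7% higher and 15.1% lower. The difference was called for 28 of 51 replication and 33 of 79 mitosis genes. Its log2 size was 0.69 for MCM3 (Aa_G206370), 0.65 for MCM5, 0.73 for MCM2 (Aa_G92320), 0.78 for MCM4 (Aa_G543470), 0.78 for MCM8 (Aa_G34730) and 0.70 for the MCM family member Aa_G123810. It was 0.93 for the main PCNA gene (Aa_G275760), 0.75 for Aa_G142680 and 0.54 for clamp loader subunit 2 (Aa_G95360). Among the single-strand binding genes it was 0.90 for RPA2 (Aa_G111930), 0.77 for RPA1 (Aa_G78150), -0.64 for the 51 kDa subunit (Aa_G637490) and -0.58 for Aa_G391100. Among the polymerases it was 0.68 for the alpha B subunit (Aa_G184450), 0.81 for epsilon subunit 2 (Aa_G8770), -0.59 for the 255 bp model of epsilon subunit 1 (Aa_G635450) and -0.76 for the RNA-directed polymerase-like gene (Aa_G483270). The last of these was lost without SAM stage 3 replicate 1 (edgeR adjusted p = 0.0515).

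Among the cyclins the same difference was 0.94 for Aa_G263150, 0.86 for Aa_G263160, 0.75 for Aa_G382680, 0.81 for S13-6 (Aa_G153290), 0.78 for cyclin b (Aa_G216070) and 0.63 for B3-1 (Aa_G65550). For the Aurora kinases it was 0.98 (Aa_G480940), 0.69 (Aa_G404980) and 0.91 (Aurora-3, Aa_G16180). For the checkpoint it was 0.78 (MAD2, Aa_G83430) and 0.67 (Aa_G92530), and for SKA1 (Aa_G353950) 0.71. Kinesins with a positive difference were kif22-like (Aa_G85250, 0.62), the bipolar kinesin (Aa_G249290, 0.63) and the kinesin heavy chain gene (Aa_G146580, 0.42), the last lost without any 1 of 5 libraries. Those with a negative one were K39 (Aa_G185100, -0.77), Aa_G901520 (-1.45) and kif2a-like (Aa_G241910, -0.40). The groups at stage 3 enter both the step and the stage 3 difference.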

How the results depend on the processing

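Of 381 single calls of members, 230 were kept in every alternative, 151 were lost in 1 or more, and 0 reversed. The share kept differed widely between comparisons. Between AB and SAM, 10 of 39 calls were kept at stage 1 and 41 of 54 at stage 2. At stages 3 and 4, 50 of 78 and 0 of 1 were kept. In AB, 4 of 21 were kept from stage 2 to stage 3 and 67 of 80 from stage 3 to stage 4. In SAM, the steps in order kept 1 of 9, 10 of 32 and 0 of 3. The tissue difference kept 0 of 3 from stage 2 to stage 3 and 47 of 61 in the last step. No scaling moved the median of all genes by more than 0.1 on the log2 scale.

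DESeq2 called 1140 genes and 3 mitosis members at stage 4, against 743 and 1. It called 405 genes in AB from stage 1 to stage 2 against 249, and 2 replication and 6 mitosis members in SAM from stage 3 to stage 4 against 1 and 2. In the tissue difference it called 117 genes in the step from stage 1 to stage 2 against 21, and 1574 genes and 1 replication member in the step from stage 2 to stage 3 against 997 and 0. Library size alone gave 0 mitosis members at stage 4 and 1 replication member in the tissue difference from stage 2 to stage 3. Without a low-count filter the stage 4 mitosis count and the SAM replication count from stage 3 to stage 4 were both 0. The replicate block gave 38 genes in the tissue difference from stage 1 to stage 2 and changed no other count by more than 1.5 times. Library size alone also changed the split of higher and lower calls to 9 and 3 from 9 and 6 for mitosis at stage 1, to 7 and 6 from 5 and 7 for mitosis in AB from stage 2 to stage 3, and to 689 and 335 from 569 and 428 for genes in the tissue difference from stage 2 to stage 3. In that difference, RLE size factors and library size alone each gave 1 mitosis call in either direction, against 1 and 2. The cause of these shifts was not tested.

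Leaving out each library in turn gave these ranges of genes, replication members and mitosis members. AB against SAM gave 4347 to 6623, 8 to 25 and 7 to 13 at stage 1, and 373 to 590, 0 and 0 to 2 at stage 4. At stage 2 the members gave 26 to 30 and 21 to 27, and at stage 3 they gave 29 to 32 and 29 to 44. The AB steps gave 29 to 233 genes and no member from stage 1 to stage 2, 4 to 13 and 4 to 14 members from stage 2 to stage 3, and 28 to 33 and 40 to 48 members from stage 3 to stage 4. The SAM steps gave 554 to 1745, 0 to 3 and 1 to 5 from stage 1 to stage 2, 6 to 11 and 6 to 12 members from stage 2 to stage 3, and 1052 to 1831, 0 to 2 and 0 to 2 from stage 3 to stage 4. The tissue difference gave 7 to 97 genes and no member from stage 1 to stage 2, 563 to 1277, 0 to 3 and 0 to 9 from stage 2 to stage 3, and 23 to 28 and 28 to 37 members from stage 3 to stage 4. The cause was not tested, and each fit had 1 sample fewer.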

Other observations

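Other genes of the cell cycle, outside the members and chosen by words such as origin recognition, condensin and cyclin-dependent kinase, also stood lower in AB at stage 3. Of 119 tested, 69 were lower and 5 higher there (median log2 -0.30), and in AB from stage 3 to stage 4, 69 rose and 8 fell (median 0.32). In SAM 3 rose and 3 fell in that step. Of all tested genes 23% rose and 24.2% fell in AB, and 5.14% rose and 4.04% fell in SAM. Lower at stage 3 were 9 of 11 condensin genes, which compact chromosomes, and all 3 primase, 4 chromatin assembly factor, 2 CDT1 and 2 CDC45 genes tested. In AB 10 of the condensin genes and all of the other 11 rose over the last step. Their values were seen before the genes named here were chosen, and 22.1% of all tested genes were lower at stage 3.

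CDT1 (Aa_G343100), which loads the helicase, had 60.3, 75.1 and 85.4 CPM in AB at stage 3 and 127, 104 and 118 CPM in SAM. At stage 4 it had 126, 144 and 142 CPM in AB and 116, 115 and 116 CPM in SAM. AB lay wholly below SAM at stage 3 and wholly above it at stage 4, after a rise in AB of 0.90 ± 0.12 (edgeR adjusted p = 5.69e-06). Groups did not overlap in 50.9% of all tested genes at stage 3 and 26.8% at stage 4. A MAP65-3-like gene (Aa_G101910), of a family that bundles microtubules, had 72.2, 69.9 and 98.1 CPM in AB at stage 3 and 123, 114 and 117 CPM in SAM, and rose in AB by 0.83 ± 0.09 (5.7e-07).

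Among 8 genes described as inhibitors of cyclin-dependent kinases, inhibitors 3 and 6 went opposite ways at stage 3. They were chosen after their values were seen, and the rest of the 8 are not described here. Inhibitor 3 (Aa_G311130) had 10.8, 12.9 and 13.2 CPM in AB at stage 3 and 25.6, 21.0 and 28.0 CPM in SAM, and rose in AB by 1.02 ± 0.14 over the last step (edgeR adjusted p = 8.1e-06). Inhibitor 6 (Aa_G382290), at far lower counts, had 3.37, 2.40 and 1.84 CPM in AB at stage 3 and 0.778, 0.466 and 0.993 CPM in SAM. It fell in AB over the last step (-2.61 ± 0.46, edgeR adjusted p = 0.000102) to 0.125, 0.598 and 0.510 CPM, against 0.463, 0.549 and 0.607 CPM in SAM, where the groups overlapped. The 3 genes taken as trichome markers, by the word glabra in their descriptions, summed to 98.2 to 113 TPM in AB and 101 to 121 TPM in SAM. Whether each of them marks trichomes was not checked.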
